A study of Rattus norvegicus with 18 samples.

Results

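Treadmill training for 8 weeks was compared with no training in the gastrocnemius, a calf muscle, of rats from a pair of lines bred for their response to training. All 12 responder libraries of the 18 in the series were used, 1 library per rat: 6 trained rats, 3 HRTT of the high responder line and 3 LRTT of the low responder line, and 6 untrained rats, 3 HRT and 3 LRT of the same lines. All were males of generation 15 of lines derived from N:NIH stock, first tested for running capacity at 10 to 12 weeks of age. The trained rats ran 3 sessions a week for 8 weeks, and muscle was taken 48 h after the last capacity test, which the untrained rats had also undergone. The untrained rats are therefore controls for the training and not for running itself, and rats of selected, genetically mixed lines are not copies of 1 genotype. Training was the contrast and line was a term of the model, so that the test asked for a difference common to both lines.

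Endurance training is known to act on skeletal muscle through calcium signalling and energy sensing in the fibre. Repeated activity favours the oxidative program, with more mitochondria, more capillaries and more of the slow isoforms of the contractile proteins. The gastrocnemius of the rat is a mixed muscle in which fast fibres prevail, and its deep part holds more slow fibres than its surface.

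Over both lines, 0 of 13478 genes kept by the filter on low counts passed edgeR's test for a difference between trained and untrained rats. DESeq2 called 4 of them with a 1.5-fold difference, and edgeR called 1 gene when every gene with 1 count was tested. The gene names that did show higher or lower group values in trained rats of both lines come from the tables of group values that the authors also deposited, and they include contractile proteins of slow fibres, myelin basic protein and the glutamate receptor subunit Gria4. Those values are 1 number per group with no replicate error, and the tables list a gene only because the authors called it on these same rats. They are given as a description, with no test. Of the 13478 genes tested in the counts, 0 were lower in trained rats of both lines by as much as the group values of Gria4. The counts, which have 6 rats on each side, carry identifiers that no file or table used here pairs with gene names, so that the named genes below could not be looked up in the counts. A single entry of the LRTT and LRT table is itself such an identifier. Its group value was 52.5 in LRT and 33.3 in LRTT, and its counts gave a log2 fold change of -0.70 ± 0.22 (SE) in the low and -0.25 ± 0.22 in the high responder line, with an adjusted p of 1 over both lines in edgeR.

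Of 255 names listed for LRTT against LRT and 90 listed for HRTT against HRT, 40 were in both tables, which is 15.7% of the first and 44.4% of the second. The group value was higher in trained rats of both lines for 28 of the 40, lower in both for 5, and higher in one line and lower in the other for 7. The 28 higher genes had a ratio of trained over untrained, as the geometric mean of both lines, of 1.76 to 7.71 with a median of 3.11. The ratio was the larger one in the low responder line for 20 of the 28.

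**Figure D1:**
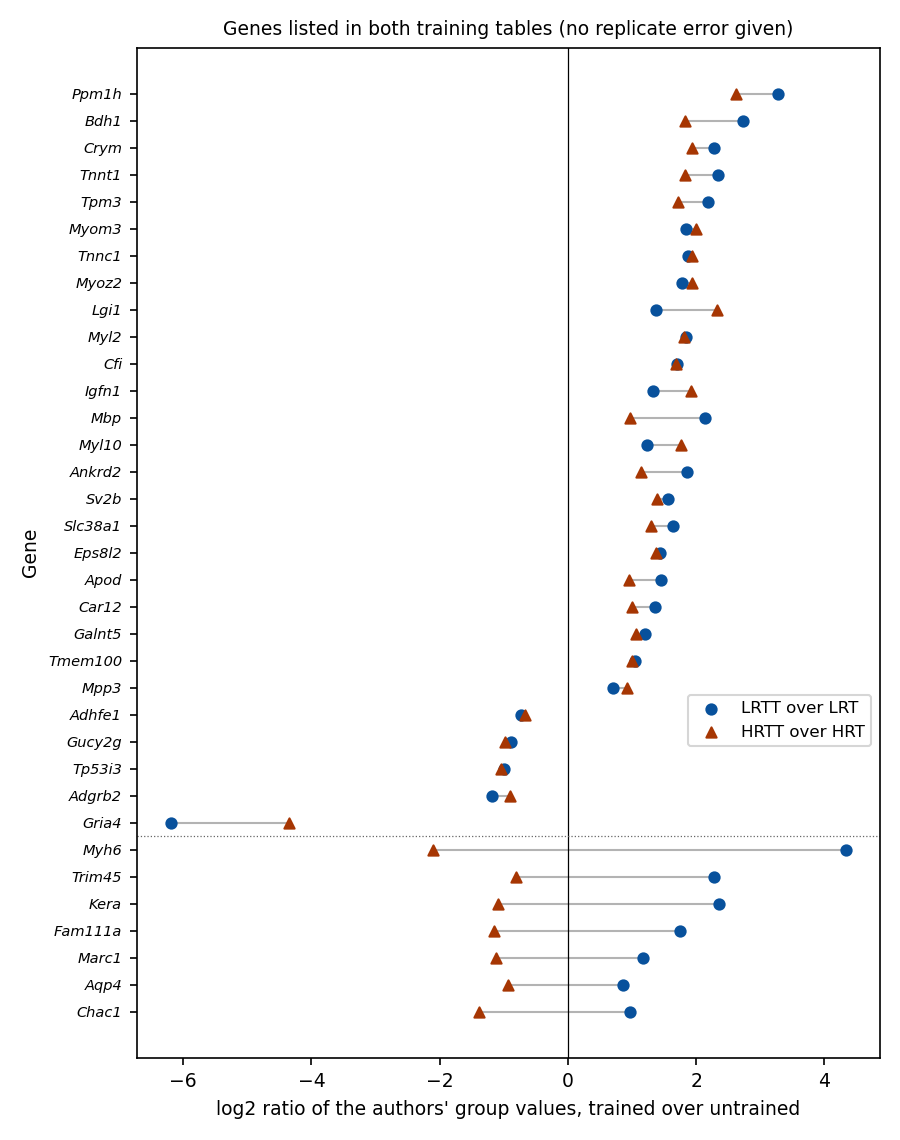
Ratio of the authors' group values, trained over untrained, on a log2 scale, for 35 of the 40 genes listed in both training tables; the others are not drawn. Circles are LRTT over LRT and triangles HRTT over HRT, each from 1 value per group with no error bar; 28 genes lie on 1 side of 0 in both lines, with Gria4 far to the left, and 7 below the dotted line lie on opposite sides.

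Of the gene lists looked up, slow fibre contraction had the most members in both training tables, 7. The list held 18 names, of which 13 stood in a training table, as did 305 names of any kind. How many genes the authors tested is not given, so the share of all genes listed, which these counts would need beside them, is unknown. All 11 listed for LRTT against LRT were higher in trained rats, and of the 9 listed for HRTT against HRT, 8 were higher and 1 was lower. Over all listed names, 174 of 255 were higher in LRTT and 62 of 90 in HRTT. The pooled values do not show which rats carried them. The counts of the genes over 2-fold higher in both lines, described further on, were high in only 3 of the 6 trained rats and in 2 of the 6 untrained ones. Those genes have no names here, so whether any slow fibre gene is among them is unknown. Tnnt1, the slow isoform of the troponin subunit that binds tropomyosin, had a group value of 98.1 in LRT and 496 in LRTT, and of 89.1 in HRT and 317 in HRTT. Tnnc1, the calcium-binding troponin subunit of slow and cardiac muscle, had 111 in LRT and 407 in LRTT against 65.03 in HRT and 248 in HRTT. Its ratio was 3.68 in the low and 3.81 in the high responder line.

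Myl2, the regulatory light chain of slow myosin, was 3.59-fold higher in LRTT than in LRT and 3.52-fold higher in HRTT than in HRT. Tpm3, the slow tropomyosin, was 4.54-fold and 3.27-fold higher. Myoz2, a Z-disc protein that binds calcineurin in slow fibres, was 3.44-fold and 3.81-fold higher. Ankrd2, a stretch-responsive ankyrin repeat protein, was 3.63-fold and 2.19-fold higher. For these 6 genes the line with the larger ratio was not always the same one: it was the high responder line for Tnnc1 and Myoz2 and the low responder line for the other four.

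Myh7, the slow myosin heavy chain, was listed for the low responder line only, with 41.6 in LRT and 210 in LRTT, as were Tnni1, the slow inhibitory troponin subunit, with 95.5 and 431, and Myl3, the essential light chain, with 296 and 1086. Casq2 and Sln, which bind calcium in the sarcoplasmic reticulum and inhibit its calcium pump, were listed for the high responder line only. Casq2 had 6.65 in HRT and 16.9 in HRTT. Sln had 14.7 and 306, and in the tables that compare the lines its value was 56.3 in LRT and 38.1 in LRTT, so that trained rats had the higher value in only 1 line. Myh6, the alpha heavy chain of heart myosin, went the opposite way between the lines, from 0.241 in LRT to 4.87 in LRTT and from 1.44 in HRT to 0.333 in HRTT.

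No name on the list of fast fibre genes, and none of the 10 markers of skeletal muscle fibres, stood in a training table, so the labelled tissue could not be checked against its markers. A higher value of slow fibre genes in a whole muscle piece does not separate more slow fibres from more RNA per slow fibre, and the depth at which the gastrocnemius was sampled is not given in the labels.

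Promoters of the 6 slow fibre genes higher in both lines were looked up because these genes had higher values together. RefSeq (build GRCr8, not the build of the counts) held entries for 4 of them: Ankrd2, Myoz2, Tnnt1 and 3 starts of Tpm3. The 250 bases before the start are shown for Myoz2, the only entry with a match to a MEF2 site, and for Tnnt1, which had the largest ratio of the 6 in the low responder line. Capitals mark a match to a MEF2 site, searched as CTA, 4 bases of any kind and TAG.
Myoz2, chr2:213852779-213853028, minus strand: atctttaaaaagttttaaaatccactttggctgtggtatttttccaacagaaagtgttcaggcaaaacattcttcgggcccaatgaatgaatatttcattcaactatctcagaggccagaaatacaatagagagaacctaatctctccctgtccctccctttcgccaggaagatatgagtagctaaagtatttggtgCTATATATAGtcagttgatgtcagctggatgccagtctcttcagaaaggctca
Tnnt1, chr1:78348785-78349034, plus strand: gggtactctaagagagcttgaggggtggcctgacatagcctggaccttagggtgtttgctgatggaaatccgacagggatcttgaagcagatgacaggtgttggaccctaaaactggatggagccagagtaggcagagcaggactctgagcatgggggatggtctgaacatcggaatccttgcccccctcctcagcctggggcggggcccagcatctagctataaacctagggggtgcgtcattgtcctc
The match in Myoz2 begins 53 bases before the start and its letters also hold a TATA-like run. Searched on both strands, the MEF2 site was in 1 of the 6 promoter entries and in 3.41% of all 33469 promoters of the same length. CATTCCT, the letters of an MCAT element, was in 0 of the 6 entries and in 4.35% of all promoters, and CANNTG, an E-box, was in 4 of the 6 and in 65.5% of all. The 6 entries are from 4 genes and some of the Tpm3 entries overlap, so they are not 6 separate promoters. Each of the 4 genes had an entry with an E-box. These matches describe letters and not binding.

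Some other proteins of the sarcomere, which were not a list fixed beforehand, had higher values in trained rats of both lines as well. Myom3, a myomesin of the M-band, had 2.66 in LRT, 9.55 in LRTT, 1.26 in HRT and 5.02 in HRTT. Igfn1, a Z-disc protein on the list of regeneration genes, was 2.50-fold higher in LRTT and 3.77-fold higher in HRTT. Myl10, a myosin regulatory light chain, was 2.35-fold and 3.41-fold higher. For all 3 the high responder line had the larger ratio.

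Mbp, myelin basic protein, also had higher values in trained rats of both lines, with 2.81 in LRT and 12.3 in LRTT, and 1.89 in HRT and 3.69 in HRTT. Of the 8 markers of Schwann cells and nerve, 5 were listed for LRTT against LRT, all of them higher in LRTT, and 2 for HRTT against HRT, both higher in HRTT, beside the 174 of 255 and 62 of 90 higher among all listed names. S100b, which stood only in the tables that compare the lines, had 6.39 in LRT and 6.92 in LRTT against 3.12 in HRT and 2.90 in HRTT. Sox10 and Egr2 stood in none of these tables. The share of all tested genes that the authors listed is unknown here too. How much nerve each piece of muscle held was not tested.

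Enzymes and transporters were among the 28 as well. Ppm1h, a protein phosphatase, had the largest mean ratio of the 28, with 0.628 in LRT, 6.09 in LRTT, 0.540 in HRT and 3.31 in HRTT. Bdh1, a mitochondrial enzyme of ketone body metabolism, was 6.61-fold higher in LRTT and 3.54-fold higher in HRTT. Crym, a thyroid hormone binding protein, was 4.83-fold and 3.81-fold higher. Slc38a1, an amino acid transporter that carries glutamine, was 3.12-fold and 2.45-fold higher, and Car12, a carbonic anhydrase of the cell surface, was 2.57-fold and 2.00-fold higher.

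Secreted and synaptic proteins were among the 28 too. Cfi, a protease of the complement system, was 3.26-fold higher in LRTT and 3.21-fold higher in HRTT, and Apod, an apolipoprotein, was 2.74-fold and 1.92-fold higher. Lgi1, a secreted protein of synapses, was 2.59-fold and 5.01-fold higher. Sv2b, a synaptic vesicle protein, was 2.94-fold and 2.61-fold higher. Cfi, Bdh1, Lgi1, Sv2b and Ppm1h had untrained values under 1 in both lines, and the depth behind these pooled values is unknown.

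The 5 genes with lower values in trained rats of both lines were Gria4, Adgrb2, Tp53i3, Gucy2g and Adhfe1. Gria4, a subunit of AMPA-type glutamate receptors, had 19.3 in LRT and 0.262 in LRTT, and 12.3 in HRT and 0.601 in HRTT, which is 73.4-fold and 20.4-fold lower in trained rats. In the counts, 0 of the 13478 genes tested were lower by more than 3 on the log2 scale in both lines, and 2 were lower by more than 2. Among all genes over 1 CPM (counts scaled to library size) in untrained rats, tested or not, 0 were lower by more than 3 in both lines. The group values of Gria4 were lower by 6.20 and 4.35 on that scale, so no such gene in the counts fell as far in both lines. Gria4 itself could not be looked up there. Adgrb2, an adhesion G protein coupled receptor, had 25.2 and 11.2 in the low responder line and 24.8 and 13.3 in the high responder line. Tp53i3, a quinone oxidoreductase induced by p53, had 20.5 and 10.3 against 20.3 and 9.90. Gucy2g, a membrane guanylyl cyclase, had 2.61 and 1.42 against 1.78 and 0.901. Adhfe1, a mitochondrial alcohol dehydrogenase, had 31.95 and 19.2 against 24.8 and 15.6. Except for Gria4, the ratios of trained over untrained lay between 0.442 and 0.628 in both lines.

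The 7 genes with opposite directions were all higher in LRTT than in LRT and lower in HRTT than in HRT. Beside Myh6 they were Aqp4, Chac1, Fam111a, Kera, Marc1 and Trim45. Aqp4, the water channel of the fast fibre membrane, went from 27.0 to 49.1 in the low responder line and from 34.9 to 18.3 in the high responder line. Chac1, an enzyme that degrades glutathione and a target of the stress factor Atf4, went from 15.6 to 30.6 and from 26.0 to 9.91. Kera, a matrix proteoglycan, went from 5.05 to 25.8 and from 14.95 to 7.03.

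Of the 305 names in either training table, 265 stood in 1 of them only, 215 for the low and 50 for the high responder line. Among the 22 gene lists looked up, 13 had a member in a training table and 3 had one in both: slow fibre contraction, regeneration with Igfn1 and the amino acid response with Chac1. Of the 12 lists of cell type markers, 5 had a member in a training table and 1, Schwann cells and nerve, had members in both. Of 10 adipocyte markers, Adipoq, Plin1, Lep, Cidec and Pck1 stood in the table of the low responder line, all 5 lower in LRTT, and 4 of 8 tendon markers did, all 4 higher. Of the 255 names listed there, 81 were lower and 174 higher, and the number of genes the authors tested, which a share of the markers would need beside it, is not in these tables. None of either list stood in the table of the high responder line. A further tendon marker, Cilp, stood only in the tables that compare the lines and was lower in trained rats, with 8.83 in LRT and 5.20 in LRTT against 3.36 in HRT and 2.95 in HRTT. The lists of nuclear-encoded respiratory chain subunits, citric acid cycle enzymes, calcium handling and ribosomal proteins had no member in either training table, while Ndufa10l1, which is on no list and whose name is that of a complex I subunit gene, had 1.98 in HRT and 7.06 in HRTT. Casq2 and Sln, which also handle calcium, were on the slow fibre list and not on that of calcium handling. Both stood in the table of the high responder line, with higher values in HRTT. A gene missing from a table was not called by the authors there, and its value is not given.

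A further 53 genes had values in all 4 groups through the tables that compare the lines. Their trained and untrained values come from different tables, which were scaled apart, and the same group's value differed between tables by at most 2.44%. For 3 of the 53 a ratio lay within that difference of 1 in a line. Of the others, trained rats had the higher value in both lines for 8, the lower value in both for 18, and opposite directions for 24. Ankrd1, an ankyrin repeat protein induced by muscle stress, had 30.2 in LRT and 9.66 in LRTT, and 7.09 in HRT and 4.89 in HRTT. Cdkn1a, the cell cycle inhibitor p21, had 24.4 and 14.5 against 7.18 and 6.26. Of the clock genes, Ciart had 3.26 and 2.47 against 1.22 and 0.582, and Per1 had 5.86 and 3.87 against 2.24 and 2.07. A further pair of clock genes was listed for the high responder line, with Dbp at 38.5 in HRT and 16.5 in HRTT and Nfil3 at 19.2 and 33.2. All 53 were listed for a difference between the lines, and 12 of them, Ankrd1 among these, were also listed in a training table.

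The counts show how the 12 rats varied. Each library held between 25084058 and 41446415 counted reads, and 13478 of the 32882 genes passed the filter on low counts. In a principal component analysis of the 500 genes that varied most, the first component, with 50.7% of the variance, did not separate trained from untrained rats. Its negative end held 5 libraries, HRT 1, HRTT 1, LRT 2, LRTT 1 and LRTT 2, and the other seven at its positive end, so that each of the 4 groups had rats on both sides. The mean was -5.41 ± 27.2 (SD, n = 6) in trained and 5.41 ± 19.5 (SD, n = 6) in untrained rats. The nearest library to a given one came from a rat of the same training state in 5 of 12 cases and of the same line in 9 of 12.

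**Figure D2:**
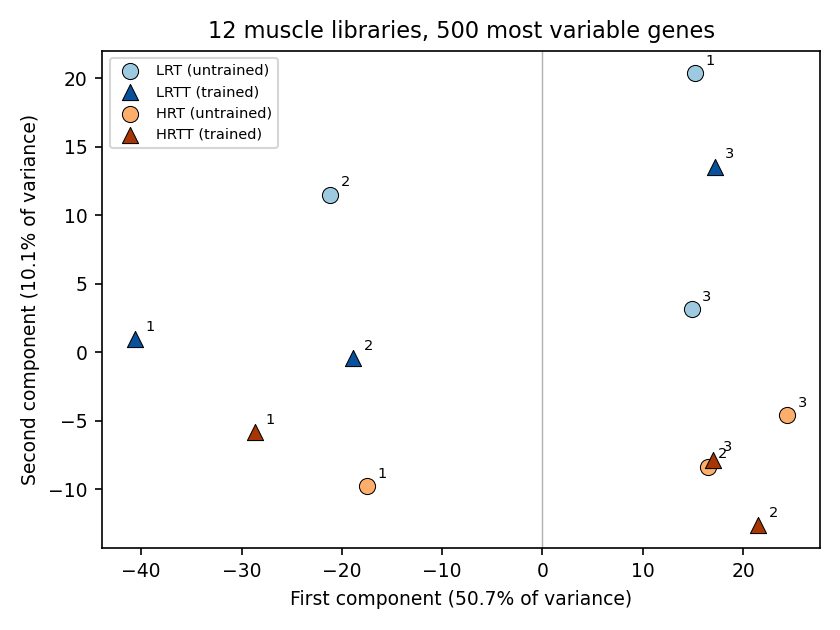
First and second principal components of log2 CPM over the 500 most variable genes, 1 point per rat, with its replicate number, circles for untrained and triangles for trained rats. Both triangles and circles stand at the left (5 rats) and at the right (7 rats), and the first component holds 50.7% of the variance.

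For the median gene, training took 3.15% of the variance of log2 CPM among the 12 libraries, line took 7.83%, their interaction 4.64%, and differences between rats of the same group 73.7%. The shares of training, line and interaction rest on 1 degree of freedom each and the last on 8.

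In edgeR's quasi-likelihood test with line as a term, 0 of 13478 genes (0%) passed an adjusted p of 0.05 (Benjamini-Hochberg) together with a 1.5-fold difference, the rule for a call. The smallest adjusted p was 0.216. DESeq2 called 4 genes, 3 higher and 1 lower in trained rats, and limma-voom called 0. Before adjustment, 425 genes had a p under 0.05, with 204 higher and 221 lower, which is 3.15%, 1.51% and 1.64% of the genes tested, where 674 would be expected at that level if no gene differed. Without HRT replicate 3 this number was 683. The median absolute log2 fold change was 0.08 with a median SE of 0.14, and 507 genes differed by more than 1.5-fold, 321 higher and 186 lower, of which 160 had an unadjusted p under 0.05.

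All 6 trained libraries lay above or below all 6 untrained libraries for 19 genes, 0.141% of those tested, 7 higher and 12 lower. The 2 identifiers with the smallest p in each direction were among them and are described here. They were chosen after their values were seen, and they did not pass edgeR's test with the filter on low counts. ENSRNOG00000033653, ENSRNOG00000017693 and ENSRNOG00000010725 are among the genes that DESeq2 called.

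ENSRNOG00000033653 had 17.7, 24.8 and 21.0 CPM (counts scaled to library size, with TMM factors) in LRT rats and 32.6, 28.6 and 41.8 in LRTT rats. In the high responder line it had 15.2, 12.9 and 18.4 CPM in HRT and 31.7, 28.1 and 27.95 in HRTT. The lowest trained rat lay above the highest untrained one. The log2 fold change over both lines was 0.81 ± 0.12 (SE), with an adjusted p of 0.216 in edgeR and 2.36e-05 in DESeq2, and it was 0.70 ± 0.17 in the low and 0.92 ± 0.17 in the high responder line. Over the 28 alternative settings the fold change stayed between 0.74 and 0.94 and the adjusted p between 2.36e-05 and 1, and 2 settings called it.

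ENSRNOG00000017693 had 1.57 to 1.99 CPM in LRT and 3.04 to 3.07 in LRTT, and 1.07 to 2.28 in HRT and 2.94 to 3.22 in HRTT. Its counts were low, from 38 to 118 reads. The mean was 3.08 ± 0.0918 CPM (SD, n = 6) in trained and 1.66 ± 0.435 (SD, n = 6) in untrained rats, with trained rats close together and no overlap between the groups. The log2 fold change was 0.89 ± 0.17 (SE), with an adjusted p of 0.400 in edgeR and 0.00169 in DESeq2, over a range of 0.00169 to 1 in all settings.

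ENSRNOG00000010725 had 3.83 to 4.37 CPM in LRT and 2.03 to 2.49 in LRTT, and 4.06 to 5.03 in HRT and 2.91 to 3.58 in HRTT. The log2 fold change was -0.67 ± 0.12 (SE), with an adjusted p of 0.400 in edgeR and 0.00169 in DESeq2, and it was -0.86 ± 0.16 in the low and -0.49 ± 0.15 in the high responder line. ENSRNOG00000009197 had 17.3 to 20.7 CPM in LRT and 10.9 to 13.6 in LRTT, and 18.9 to 22.1 in HRT and 14.1 to 17.2 in HRTT, with a log2 fold change of -0.48 ± 0.09 (SE) and an adjusted p of 0.438 in edgeR. Over all settings the adjusted p ran from 0.00169 to 1 for the first and from 0.00565 to 1 for the second, lowest in DESeq2, where the second stayed under the fold of 1.5. For both, every trained rat lay below every untrained one, in HRTT by less than in LRTT. The difference between the lines did not pass the test, with an adjusted p of 0.947 for the interaction of both genes in edgeR.

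**Figure D3:**
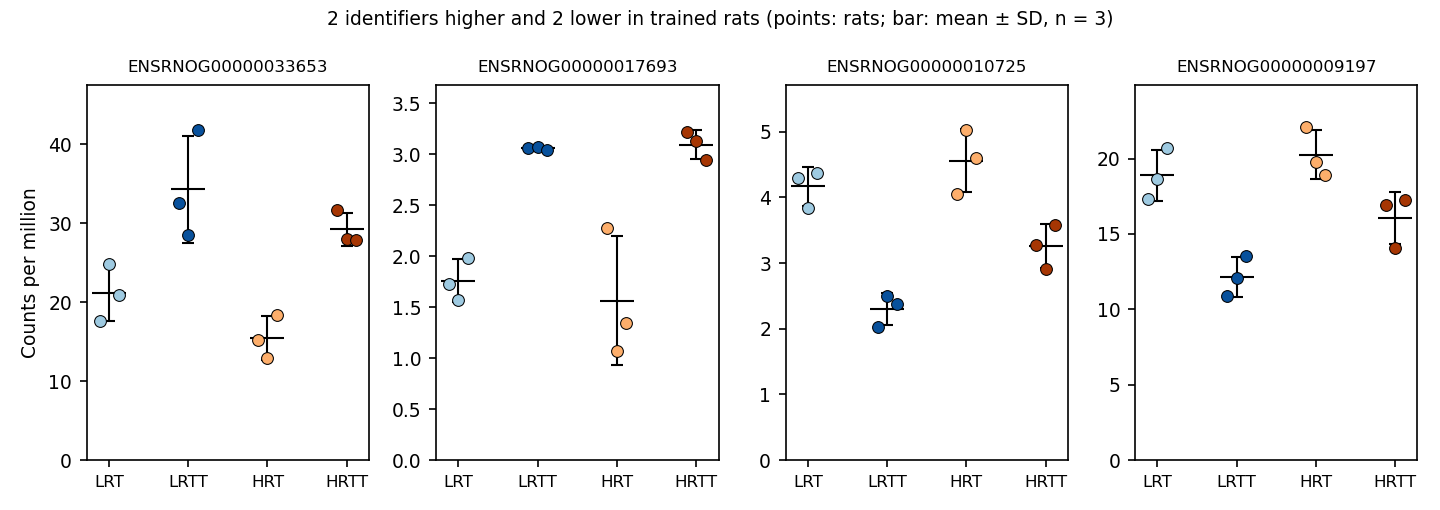
CPM, on axes from 0, of the 2 identifiers higher and the 2 lower in trained rats with the smallest p, in LRT, LRTT, HRT and HRTT. Points are rats and bars the mean ± SD (n = 3); in each panel the 6 trained rats do not overlap the 6 untrained ones, and the adjusted p is between 0.216 and 0.438.

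The training differences of both lines, which share no library, were set side by side gene by gene. In edgeR 0 genes were called in either line. In LRTT against LRT, 565 genes (4.19%) had an unadjusted p under 0.05, 303 higher and 262 lower in trained rats, and in HRTT against HRT 335 (2.49%) did, 166 higher and 169 lower. Both lists held 39 genes, which is 6.90% of the first and 11.6% of the second. Of these, 25 (0.185% of the genes tested) had the same direction, 11 higher and 14 lower, and 14 had opposite directions. With the replicate number as a block within each line, a fit chosen after seeing the data, 68 genes were in both lists and 39 of them had the same direction. Over all 13478 genes the sign of the difference was the same in both lines for 44.1%. Pearson's r between the differences was 0.129 and Spearman's rho -0.073 across genes, which share their libraries and are not independent replicates. These are descriptions, and no p is given for them.

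**Figure D4:**
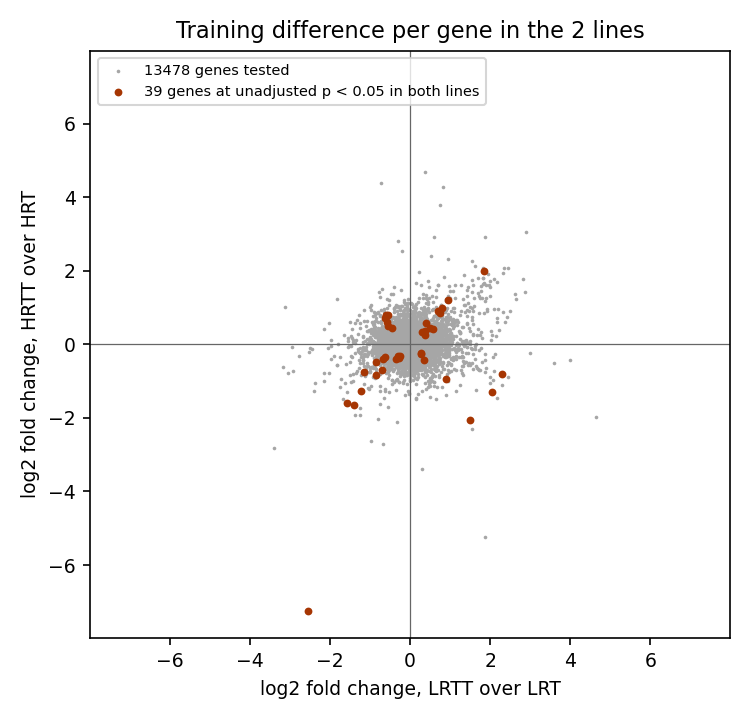
log2 fold change of trained over untrained rats in the low responder line (x) and in the high responder line (y), 1 point per gene for 13478 genes, with the 39 genes at an unadjusted p under 0.05 in both lines in colour. Most genes lie around 0 in both lines; 25 of the 39 lie in the quadrants of equal sign, and a loose group lies at the upper right.

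Whether training acted differently in the lines was tested gene by gene as an interaction. In edgeR 0 genes (0%) were called, with a smallest adjusted p of 0.642, and 502 genes, 3.72% of those tested, had an unadjusted p under 0.05. DESeq2 called 3 genes and limma-voom 0. The term for line, given for scale, called 13 genes.

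Differences above 2-fold in both lines in the same direction were seen in 52 genes higher in trained rats, 0.386% of those tested, and in 19 genes lower, 0.141%. A further 11 genes were over 2-fold higher in LRTT and over 2-fold lower in HRTT, and 2 the reverse. The 52 genes had a median log2 fold change of 1.68 with a median SE of 1.05, and their smallest adjusted p was 1. The high values were neither in all trained rats nor in trained rats alone. The median of the 52 genes, as log2 CPM minus its mean over the 12 libraries, was 3.02, 1.29 and -1.12 in the 3 LRTT rats and 2.72, -1.33 and -1.39 in the 3 HRTT rats. It was -1.35, 1.40 and -1.42 in LRT and 1.03, -1.57 and -1.69 in HRT. The 5 rats with a positive value were the 5 at the negative end of the first principal component. These genes varied far more within a group than others did, with a median SD of log2 CPM of 1.36 to 2.40 against 0.173 to 0.235 over all genes. Without HRTT replicate 1 the count was 22 and without LRTT replicate 1 it was 25, while it was 96 without HRT replicate 1, 81 without LRT replicate 2 or HRTT replicate 3 and 80 without HRTT replicate 2.

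The 19 genes lower in both lines also varied more within a group than others did, with a median SD of log2 CPM of 0.539 to 0.979. Their median, on the same scale, was 1.75, 1.01 and 0.893 in LRT and -0.731, -0.703 and 0.0912 in LRTT, and -0.172, 0.264 and 0.241 in HRT and -0.679, -0.909 and -0.839 in HRTT. Within each line every untrained rat had a higher median than every trained rat, which the choice of these genes favours, while LRTT 3 lay above HRT 1. The median log2 fold change was -1.51 with a median SE of 0.484 and the smallest adjusted p was 0.882. The count was 36 without HRT replicate 1, 31 without HRT replicate 2 and 12 without HRT replicate 3. Both sets were chosen by the size of the difference, so that their direction is no result, and whether any of the 40 named genes is among them could not be read from the files.

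**Figure D5:**
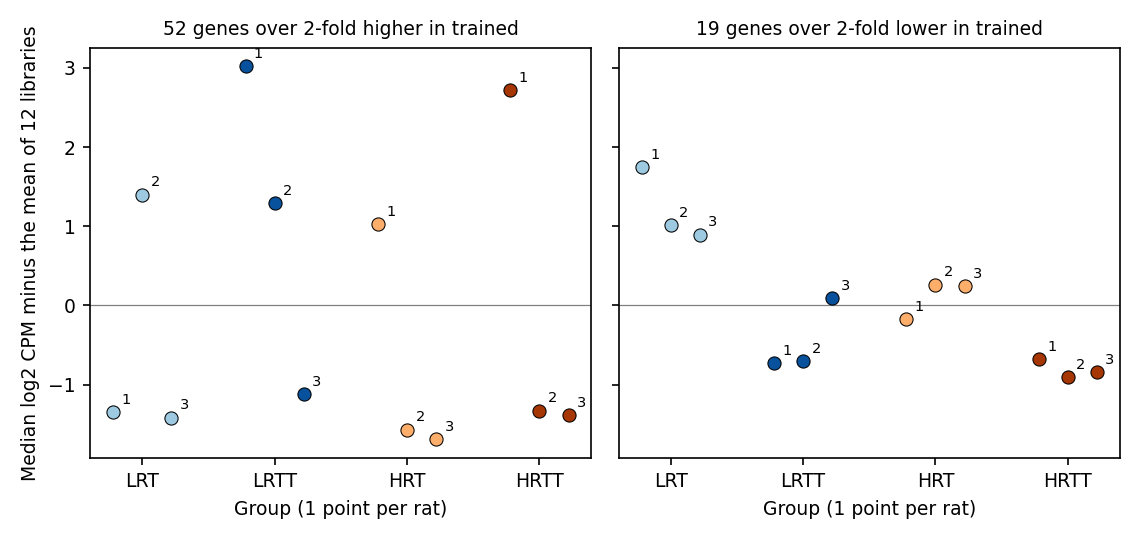
Median over genes of log2 CPM minus the mean of the 12 libraries, 1 point per rat with its replicate number, for the 52 genes over 2-fold higher (left) and the 19 genes over 2-fold lower (right) in trained rats of both lines. At the left, 1 or 2 rats of every group stand between 1.03 and 3.02 and the others between -1.69 and -1.12; at the right, trained rats lie below untrained rats of their line.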

How the data were processed

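RNA of gastrocnemius from 12 rats was sequenced with reads of 50 bases. The authors deposited raw read counts per Ensembl gene, which per the file headers were made with featureCounts 1.6.4 and Ensembl release 91 of Rnor_6.0, with strand ignored and a read counted for every gene it overlapped, so that overlapping and antisense genes can share reads. The methods name Tophat2, while the alignment names in the headers have the form that STAR gives. The authors also deposited Cuffdiff tables of the genes they called, with 1 signal per group, replicates pooled and no unit named; their fold changes, p-values and q-values were not used, and ratios were formed within a table, except for genes whose trained and untrained values stood in different tables, as the text says. One name listed more than once was left out, and some listed genes are not reported here.

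For the counts, edgeR 4.0.16 in R 4.3.3 was used (filterByExpr, minimum count 10, TMM, robust quasi-likelihood test, line and training as terms), with DESeq2 1.42.0, limma 3.58.1 and sva 3.50.0 as alternatives. Calls needed an adjusted p (Benjamini-Hochberg) below 0.05 and a 1.5-fold difference. The SE is the log2 fold change divided by the square root of the quasi-likelihood F. Log2 CPM used a prior count of 2. Per-line differences and the interaction came from a fit with 1 term per group. The script was tested on simulated data. Between replicates of a group, the chi-square per gene was 15.5 to 262, and none was counted as a repeat of another. The labels do not say how rats of 1 group were related, and p-values measure the spread between these rats.

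Because 0 of the 32882 identifiers could be paired with a symbol, the rule for named genes left at most 2 identifiers in each direction, meant for called genes. As edgeR called none with the filter on low counts, those with the smallest p are given. Members, gene lists and settings were chosen with earlier results of these data known. Promoters are from RefSeq, build GRCr8. Figures were drawn with matplotlib 3.10.9. Intervals of counting error are not given, since the spread between rats is larger. The 6 HCR and LCR libraries were not used here.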

Additional observations from a re-analysis of the deposited data

Results flagged for a closer look

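For ENSRNOG00000033653, LRTT replicate 3 stood apart from the other trained rats, with 41.8 CPM against 27.95 to 32.6 in the other five, a gap of 0.668 of the range of the 6 trained rats. It was 1 of 14 sets of 6 rats looked at in this way, and chance flags about 1 in 20. Without that library the log2 fold change was 0.75 with an adjusted p of 0.504 in edgeR.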

How the results depend on the processing

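The number of genes called, trained against untrained, was 0 with RLE or upper quartile scaling, limma-voom, a minimum of 10 counts in every library, no fold threshold, an adjusted p under 0.10, no line term, the number in the column headings as a factor (its meaning is not given in the files) and 1 surrogate variable. It was 0 without any single library. With DESeq2's Wald test 4 genes passed, of which 3 were higher and 1 lower, and 3 passed for the interaction. With every gene that had 1 count, 1 gene was called, higher in trained rats. For the interaction, leaving out 1 library gave 0 to 1 genes, with 1 only without HRTT replicate 1. Against a fold of 1.5, 53 genes had an unadjusted p under 0.05. The 4 identifiers kept their direction in all 28 settings. Counts above 2-fold in both lines, a setting chosen after seeing the data, ran from 22 to 96 (higher) and from 12 to 36 (lower) without 1 library. The causes were not tested.

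Equal replicate numbers did not pair the rats over both lines: deviations of same-numbered rats from their group means correlated at -0.25, 0.019 and 0.2 in LRT and LRTT and at 0.475, 0.26 and 0.383 in HRT and HRTT, above 0.1 in all 3 pairs of the high responder line, where each HRT library was also nearest to the same-numbered HRTT library. Across the lines, LRTT and HRT correlated at 0.505, 0.119 and 0.309. With the replicate block 0 genes were called and 470 had an unadjusted p under 0.05; with the replicate block within line the numbers were 0 and 478. With that block the per-line numbers at an unadjusted p under 0.05 were 675 for LRTT against LRT and 449 for HRTT against HRT, in place of 565 and 335, and 0 genes were called in either line with or without it.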
